A study of Mus musculus with 12 samples.

Results

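The genes described here are 40 genes of the cell division cycle, a list chosen by name and function: 17 genes of DNA replication and S phase and 23 genes of mitosis. All 40 were in the count tables of the Total libraries, which hold 19369 genes, and of the CD45 libraries, which hold 18574 genes. They were followed across the cell classes of the authors' annotation in 2 ways. The first was the share of cells with at least 2 UMIs (unique molecular identifiers, each marking a captured RNA molecule) over Mki67 plus Top2a, and such cells are called dividing cells below. The second was the summed level of the members in CPM, the usual scaling of the UMIs of a gene or gene list by all UMIs of the same cells.

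The samples were 6 mouse tumours, each measured by droplet single-cell RNA sequencing in a library of all dissociated cells (Total) and in a CD45 library of leukocytes enriched with magnetic beads. The tumours were grown in the mammary fat pad of female BALB/c mice aged 9 to 11 weeks, from the 4T1 mammary carcinoma line, which stands as a model for triple-negative breast cancer and grows in mice with an intact immune system. Clones E, EM1, EM2, EM3 and M each descend from a single cell of the line and were described by the submitters as running from epithelial to mesenchymal states, and the group called parental received the uncloned line. All groups share the host strain and the site of implantation, and the labels name no added transgene or drug. Each group was 1 tumour, so a clone cannot be told apart from the animal it grew in, no test between clones was possible, and the 95% intervals given (exact Clopper-Pearson for shares, exact Poisson for counts) cover counting error only.

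A cell enters division when cyclin D kinases inactivate the retinoblastoma proteins and E2F factors switch on the S-phase genes. The Mcm2 to Mcm7 proteins form the replicative helicase, which Cdc6 and Cdt1 load on origins. Pcna is the sliding clamp of the polymerases, and Gins2 is part of the active helicase. Uhrf1 takes part in copying DNA methylation onto the new strand, and Rrm1, Rrm2, Tyms and Tk1 make deoxynucleotides. Later in the cycle the kinase Cdk1 with cyclins A2 and B drives the cell into mitosis, Aurora and Polo kinases, kinesins and centromere proteins build the spindle, and Cdc20 with Ube2c marks mitotic regulators for degradation. In tumours these genes are read as a sign of proliferating cells, whether malignant cells, macrophages that renew in place or T cells that expand on antigen.

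The start-site regions of 4 members are shown as examples of the promoter letters counted for the S-phase and mitotic genes. Each run is the 150 bases before the annotated start, from RefSeq for GRCm38.p6, written 5′ to 3′ on the strand of the gene. Capitals mark matches, on either strand, to the cell cycle homology region CHR (TTTGAA or TTCGAA), to the CCAAT box (CCAAT) or to the E2F letters (TTTCCCGC, TTTCGCGC, TTTGCCGC or TTTGGCGC). Matches that overlap run together in capitals. The windows lie at chr10:69352913-69353062 for Cdk1, chr9:70421555-70421704 for Ccnb2, chr11:99024190-99024339 for Top2a and chr1:128359706-128359855 for Mcm6, all on the minus strand.
Cdk1: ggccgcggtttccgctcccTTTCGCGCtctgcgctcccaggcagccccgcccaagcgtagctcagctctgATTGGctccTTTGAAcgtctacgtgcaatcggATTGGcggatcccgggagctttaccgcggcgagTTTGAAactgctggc
Top2a: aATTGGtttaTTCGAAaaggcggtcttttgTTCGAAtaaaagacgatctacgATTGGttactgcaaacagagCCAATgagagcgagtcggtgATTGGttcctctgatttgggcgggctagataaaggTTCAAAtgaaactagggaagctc
Ccnb2: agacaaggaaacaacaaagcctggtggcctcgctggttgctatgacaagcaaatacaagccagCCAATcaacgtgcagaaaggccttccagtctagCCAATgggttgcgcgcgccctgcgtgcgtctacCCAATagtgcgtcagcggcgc
Mcm6: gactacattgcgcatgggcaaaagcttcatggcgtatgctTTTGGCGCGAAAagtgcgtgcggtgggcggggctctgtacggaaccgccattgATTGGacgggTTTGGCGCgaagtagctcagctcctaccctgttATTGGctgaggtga
Cdk1 and Top2a held 2 and 3 CHR matches in these stretches, Ccnb2 held 3 CCAAT boxes, and Mcm6 held 3 E2F matches, of which 2 overlap. Over the full 250 bases before the start, 33 of the 40 members were matched to a promoter entry, 19 of the mitotic and 14 of the S-phase genes. A CHR match was present for 9 of the 19 mitotic genes (Bub1b, Ccnb2, Cdc20, Cdk1, Kif11, Mki67, Prc1, Top2a and Ube2c) and for 2 of the 14 S-phase genes (Mcm2 and Mcm7), against 17.1% of all 32851 promoter windows of that length. At least 1 CCAAT box was present for 17 of 19 mitotic and 9 of 14 S-phase genes, against 33.9% of all windows, and 2 or more for 11 and 6, against 10.1%. An E2F match was present for 5 of 14 S-phase genes (Cdc6, Mcm5, Mcm6, Mcm7 and Uhrf1) and for 1 of 19 mitotic genes (Cdk1), against 1.86%. These are letter matches in a window, not sites shown to be bound.

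The libraries held 28083101 to 122055131 UMIs in 6709 to 13467 cells. After removal of 3246 of 115612 cells (2.81%) called doublets, 112366 cells remained. The 16-base droplet barcodes fell into sets: 14 pairs of libraries (those of E with EM3, those of EM1 with EM2, and both libraries of M and of the parental tumour) shared 12.2% to 19.1% of the barcodes of the smaller library, against 0.686% to 1.91% in the other 52 pairs, and no full barcode was shared within a set. E and M therefore differ in the barcode set as well as in the clone, and these cannot be told apart, whereas E with EM3 and EM1 with EM2 lie within a set. The labelled classes carried their markers. The summed level of 6 macrophage markers was 7791 to 14037 CPM in the macrophages of the Total libraries and 55.3 to 292 CPM in the tumour cells, and that of 4 T cell markers was 1928 to 4264 CPM in the T/NK class and 5.60 to 73.2 CPM in the tumour cells. Tumour cells of E had a lower median depth, 6500.5 UMIs, than those of the other tumours, 9702 to 15279 UMIs, and a cut at 2 UMIs is passed more easily by deeper cells, so shares are also given after every cell was thinned to 2000 UMIs.

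Among tumour cells, dividing cells were least frequent in E and EM1 and most frequent in EM2. They made up 12.7% of 766 tumour cells in E (10.4 to 15.2), 15.3% of 2822 in EM1 (14.0 to 16.7), 35.8% of 3292 in EM2 (34.1 to 37.4), 26.0% of 1919 in EM3 (24.0 to 28.0), 27.8% of 4629 in M (26.5 to 29.1) and 27.5% of 5866 in the parental tumour (26.3 to 28.6). The intervals of E and EM1 overlapped, as did those of EM3, M and the parental tumour, and EM2 lay above all others. After thinning, with 702 cells kept in E and 1887 to 5671 in the other tumours, the shares were 5.36% in E and 6.21% in EM1, 16.6% in EM2 and 9.08% in EM3, and 11.7% in M and 11.7% in the parental tumour, so E and EM1 stayed lowest and EM2 highest. In granulocytes of the CD45 libraries, short-lived cells whose mature forms no longer divide, 0% to 0.120% of cells passed the cut. The class is not taken as free of division, since some granulocytes of the Total libraries also passed it, as given below. Median depths in the CD45 libraries were 690.5 to 1221 UMIs, far below those of the tumour cells. The background at the depth of tumour cells was thus not measured. The 0 of 2571 granulocytes in E allows a share of up to 0.117%, taking 3 cells over the total as the limit that a count of 0 allows.

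**Figure D1:**
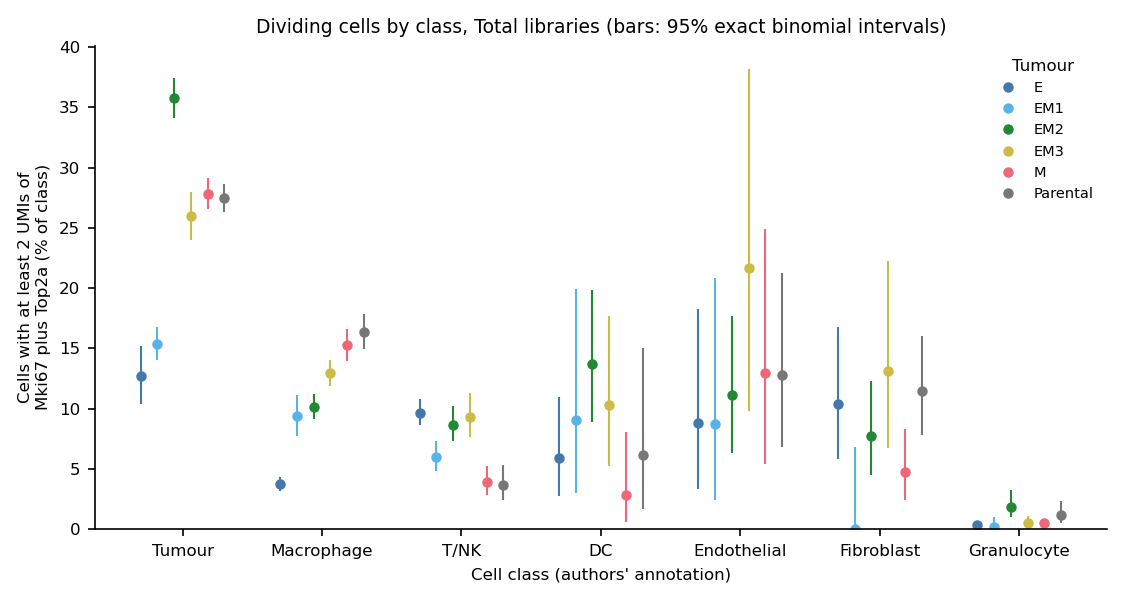
Share of dividing cells (percent of the cells of a class with at least 2 UMIs over Mki67 plus Top2a) in 7 classes of the Total libraries, 1 point per tumour, with exact 95% intervals that cover counting error. In tumour cells E (12.7%) and EM1 (15.3%) lie lowest and EM2 (35.8%) highest, whereas in T/NK cells M and the parental tumour lie lowest.

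The summed level of the 40 members in tumour cells followed a similar order. It was 1342 CPM in E (1311 to 1374) and 1512 in EM1, 2863 in EM2 and 1654 in EM3, and 2349 in M and 2339 in the parental tumour. EM2 was 0.92 log2 units above EM1, within 1 barcode set, and the share of dividing cells was 20.4 percentage points higher (18.3 to 22.5). M was 0.81 log2 units above E (0.77 to 0.84), and its share was 15.2 points higher (12.3 to 17.8). EM3 was 0.30 log2 units above E, and its share was 13.3 points higher (10.1 to 16.3), a difference that was 3.72 points after thinning. Median-of-ratios size factors made the log2 difference larger, and a cut on the mitotic members made that in the share larger, as given in the last section. M and the parental tumour differed by 0.36 points (-1.37 to 2.10) and by 0.01 log2 units.

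The mitotic genes differed more between tumours than the S-phase genes. The 23 mitotic genes summed to 524 CPM in the tumour cells of E, 572 in EM1, 1447 in EM2 and 773 in EM3, and 1177 in M and 1133 in the parental tumour. The 17 S-phase genes summed to 818, 940, 1415, 881, 1171 and 1205 CPM in the same order. E and EM1 thus carried more S-phase than mitotic message, by 0.64 and 0.72 log2 units, whereas the ratio in EM2, M, the parental tumour and EM3 was -0.03, -0.01, 0.09 and 0.19. Between M and E the mitotic sum differed by 1.17 log2 units and the S-phase sum by 0.52, and between EM2 and EM1 by 1.34 and 0.59. The ratio of S-phase to mitotic message was 0.65 log2 units lower in M than in E (interval of the log2 difference -0.72 to -0.58). The ratio was also high where few cells were dividing. In Cd44- Cd4+ T cells of the CD45 libraries, with 0% to 0.49% dividing cells, it was 1.60 to 2.44. Whether the ratio differs between tumours apart from their dividing shares was not tested.

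**Figure D2:**
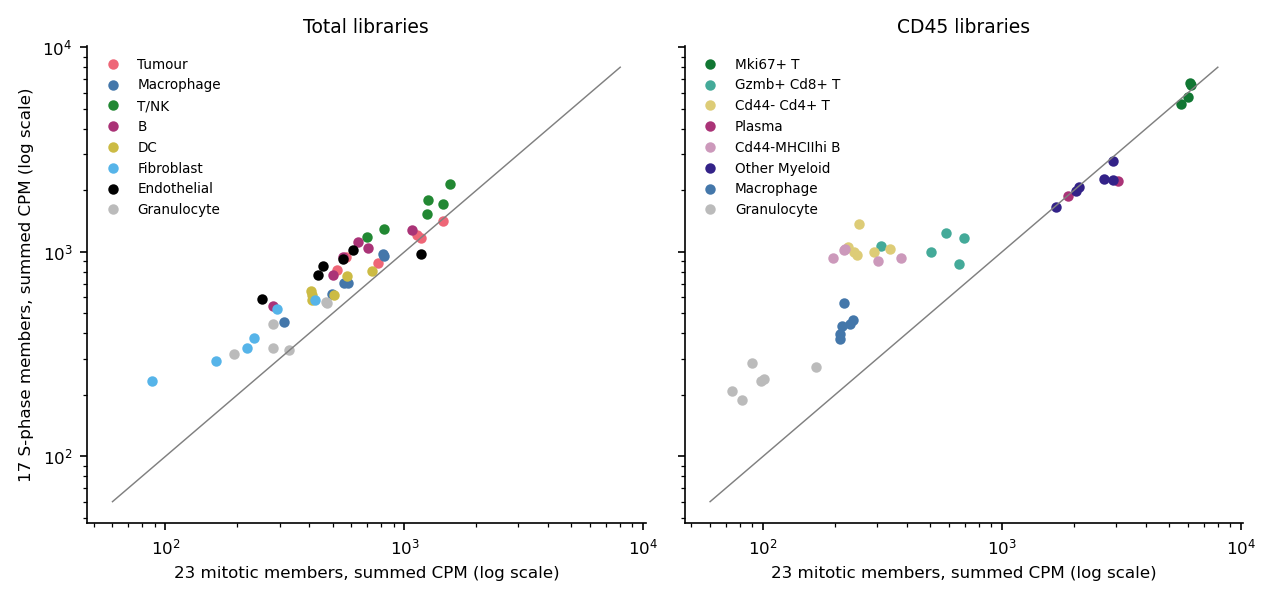
Summed level of the 17 S-phase members (y axis, CPM, log scale) against that of the 23 mitotic members (x axis, CPM, log scale) in cell classes of the Total (left) and CD45 (right) libraries, 1 point per class and tumour, with the line of equal sums. Tumour cells of E and EM1, at 524 and 572 mitotic CPM, lie above the line, those of EM2, at 1447, lie on it, and among CD45 classes Other Myeloid cells lie on or under the line while granulocytes and cells labelled Macrophage lie above it.

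Single mitotic members showed the size of the spread between tumours. Cdk1, the kinase of mitotic entry, was at 46.5 CPM in the tumour cells of E (40.8 to 52.8), 38.7 in EM1 (36.4 to 41.1), 164 in EM2 (161 to 168) and 82.2 in EM3, and 111 in M (109 to 114) and 129 in the parental tumour. E and EM1 were lowest, and the interval of EM2 met no other. Top2a, the topoisomerase that untangles replicated chromosomes, was at 114 CPM in E and in EM1, 334 in EM2 and 166 in EM3, and 242 in M and 249 in the parental tumour. Mki67, which coats mitotic chromosomes, was at 41.3, 49.6, 128, 68.1, 100 and 98.9 CPM in the same order of tumours. Both genes also defined the dividing cells, so their levels and the shares are not independent.

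Ube2c, the ubiquitin-conjugating enzyme of the anaphase-promoting complex, was at 24.7 CPM in E (20.6 to 29.4) and 33.4 in EM1, 95.7 in EM2 and 42.8 in EM3, and 97.8 in M and 96.7 in the parental tumour. EM3 lay with E and EM1 for this gene, below the other 3 tumours. Prc1, which bundles the central spindle, was at 33.9 CPM in E and 34.0 in EM1, 92.0 in EM2 and 55.8 in EM3, and 83.1 in M and 56.9 in the parental tumour. Ccnb2, cyclin B2, was at 28.6, 52.7, 83.6, 43.5, 75.4 and 62.7 CPM in the same order. Its partner gene Ccnb1 was at 0.6 to 2.3 CPM in all 6 tumours, a level too low in these libraries to be followed, and it was a member of no comparison that needed a minimum level.

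The S-phase members fell into those that followed the mitotic genes and those that did not. Rrm1, the large subunit of ribonucleotide reductase, was at 30.9 CPM in E (26.3 to 36.1) and 38.0 in EM1, 73.0 in EM2 and 46.9 in EM3, and 82.3 in M (80.1 to 84.5) and 63.4 in the parental tumour. Mcm6, a helicase subunit, was at 92.8, 134, 160, 120, 158 and 146 CPM in the same order, and Pcna was at 156, 198, 255, 193, 239 and 255 CPM. Both had their lowest value in E, and the spread over the 6 tumours was narrower than for Cdk1. Cdt1, the loading factor that is destroyed once S phase begins, went the other way between E and M: it was at 101 CPM in E (92.3 to 110) and 81.0 in EM1, 110 in EM2 and 76.9 in EM3, and 68.5 in M (66.5 to 70.5) and 88.0 in the parental tumour. Mcm5 was at 51.6 CPM in E and 45.5 in M, with its highest value, 89.2 CPM, in EM2.

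The remaining mitotic members were lower in level. Aurora kinases Aurka and Aurkb, which act at centrosomes and centromeres, ranged over the tumours from 7.20 to 15.0 and from 7.04 to 26.3 CPM, and the Polo kinase Plk1 from 8.37 to 25.3 CPM, each with its highest value in EM2. Birc5, survivin, which holds Aurora B at centromeres, did not follow the share of dividing cells at its low end: it was at 37.8 CPM in E, against 25.9 in EM1 and 30.9 in EM3, and at 59.8 in EM2. The kinesins Kif11, Kif20a and Kif23 ranged from 8.28 to 30.8, from 7.59 to 23.8 and from 21.8 to 50.9 CPM. Tpx2, which activates Aurora A on the spindle, was at 16.5 CPM in E and 26.7 in EM1, and at 39.4 to 50.6 CPM in the other 4 tumours. The spindle checkpoint genes Bub1 and Bub1b were lowest in E, at 3.89 and 6.42 CPM, as were Cdc20, at 14.0 CPM, and Nusap1, which binds spindle microtubules, at 9.15 CPM.

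Among the remaining S-phase members, Mcm2, Mcm3, Mcm4, Rrm2 and Tyms were all lowest in E and highest in EM2. Tyms, thymidylate synthase, ran from 13.8 CPM in E to 44.1 in EM2, whereas Rrm2 ran only from 33.1 to 59.4 CPM. Mcm7 departed from its partners, with 71.6 CPM in EM1, less than the 81.9 CPM of E, a lower value still in EM3 and its highest value, 116 CPM, in M. Uhrf1 and Gins2 stood out in EM2, at 139 and 48.0 CPM, against 67.2 to 84.2 and 22.2 to 35.4 CPM in the other 5 tumours. Cdc6 was low in EM1 and EM3, at 6.33 and 5.15 CPM, and at 14.4 CPM in E and 15.2 in EM2. The cyclin E genes Ccne1 and Ccne2, which start S phase, were at 2.87 to 7.78 and 3.63 to 10.9 CPM.

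Each comparison of tumour cells was also read over the whole table, counting a gene as called when its levels differed at least 2-fold on the scale of log2(CPM + 10), among genes with at least 50 CPM in either tumour. M over E called 6.62% of 5541 genes higher. Of the 40 members, 19 reached the level for this comparison and 9 of them were called higher: Mki67, Top2a, Ccnb2, Cdk1, Ube2c, Tpx2, Prc1, Mcm4 and Rrm1. Mki67, Ccnb2, Cdk1, Ube2c, Tpx2, Prc1 and Rrm1 were below 50 CPM in E and were tested only through their level in M. The count of 9 is therefore not read as a result about the members. Without regard to level, 11 of the 40 were at least 2-fold higher and 36 of 40 had a positive difference. No share of all genes was computed at any level or for the sign of the difference. Such counts, here and in the comparisons below, are therefore given as description only. Intervals did not overlap for 32 members that were higher and for 1, Cdt1, that was lower. The share of all genes with such intervals was not computed, so these interval counts are not read as a result about the members. The median log2 difference was 0.66 over the 40 members, 0.89 over the mitotic and 0.45 over the S-phase genes, against 0.11 over all genes in the comparison. The members most different from that picture were Cdt1 and Mcm5, whose values are given above.

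EM2 over EM1 called 1.11% of 5121 genes higher, and 7 of the 21 members at that level: Mki67, Top2a, Ccna2, Cdk1, Ube2c, Prc1 and Tk1. All 40 members had a positive difference, with a median of 0.66 against 0.02 over all genes. For 39 of them the intervals did not overlap, again without a share of all genes to set beside it. EM3 over E called 3.76% of 5320 genes higher and 0 of the 11 members at that level. Of the 40 members 27 had a positive and 13 a negative difference, and the median log2 difference was 0.28, against 0.02 over all genes. With median-of-ratios size factors 34 were positive and 6 negative, with a median of 0.47, and all genes shifted by 0.30. The S-phase members had a median of 0.14 and the mitotic members 0.47 in this comparison.

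Against the parental tumour, E, EM1 and EM3 were low and M and EM2 were not. E over parental called 2.98% of 5338 genes lower and 5 of the 18 members at that level (Mki67, Top2a, Cdk1, Ube2c and Mcm4), and 37 of 40 differences were negative. EM1 over parental called 1.18% lower and 3 of 18 members (Top2a, Cdk1 and Ube2c), and all 40 differences were negative. EM3 over parental called 1.12% lower and 1 of 18 members (Ube2c), again with all 40 negative. The median log2 differences of the 40 members were -0.59, -0.44 and -0.37 for E, EM1 and EM3. Over all genes they were -0.043, -0.0018 and -0.014. M over parental called 2.33% of 5157 genes higher and EM2 over parental 1.02% of 5007 genes, with 0 members called in either. Of the 40 differences 23 and 35 were positive, with medians of 0.017 and 0.24, against 0.074 and 0.0092 over all genes. These comparisons share the parental tumour and are read side by side only.

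**Figure D3:**
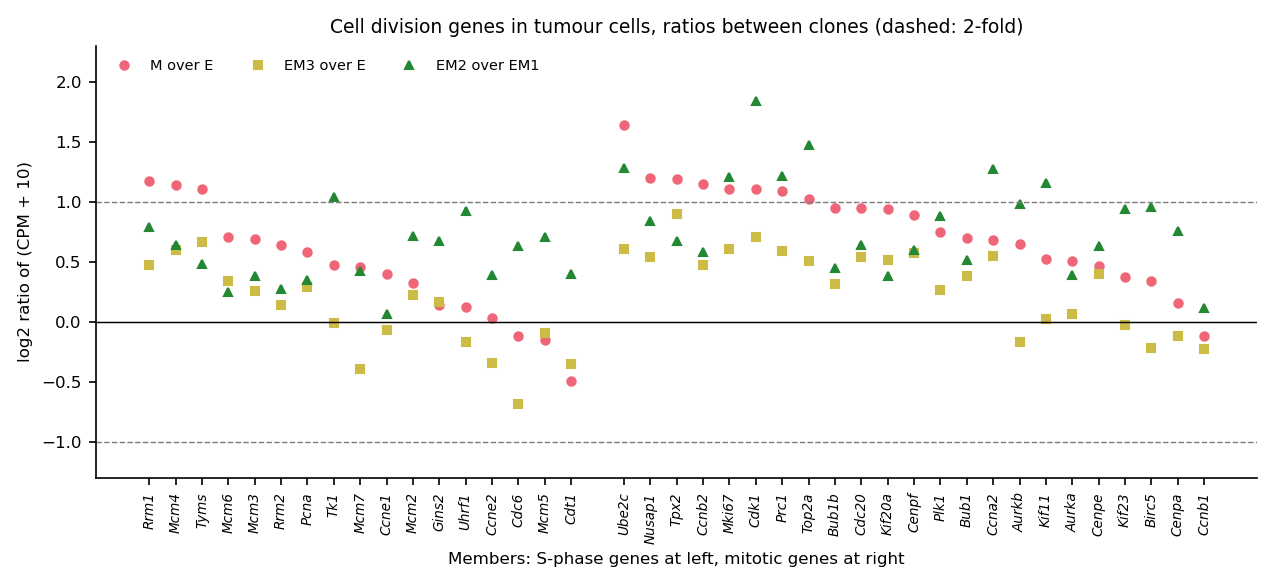
Log2 difference of each of the 40 members in tumour cells, on the scale of log2(CPM + 10), for M over E, EM3 over E and EM2 over EM1. In EM2 over EM1 all 40 members lie above 0, in M over E 36 of 40, and in EM3 over E 27 of 40.

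The genes around the members were read from 7 further lists. In M over E, 22 of 24 other kinetochore and spindle genes had a positive difference (median 0.44) and 16 of 23 other replication genes (median 0.33), of which Dut, which keeps uracil out of DNA, was called higher, 1 of the 4 tested. M over E called 8.19% of 5541 genes lower, and 1 of the 8 brakes and 1 of the 6 G1 genes that were tested, which is near that share and is no result about the lists. Of the 13 inhibitors and brakes 1 was positive (median -0.22), and Cdkn1a, the p21 inhibitor of cyclin-dependent kinases, was called lower, at 306 CPM in E (291 to 322), 168 in EM1, 202 in EM2 and 129 in M (126 to 132). Of the G1 cyclins and their kinases 3 of 6 were positive. Ccnd2, cyclin D2, was called lower, at 56.4 CPM in E and 38.2 in EM1 against 4.25 in EM2 and 6.39 in M, with 21.5 in EM3 and 20.2 in the parental tumour between them. Ccnd1, cyclin D1, was at 340 CPM in E and 367 in EM1, 755 in EM2 and 645 in EM3, and 656 in M and 447 in the parental tumour. E and EM1, the tumours lowest in the members, were thus highest in Ccnd2 and lowest in Ccnd1.

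In EM2 over EM1 all 24 other kinetochore and spindle genes and all 23 other replication genes had a positive difference. Beside the 1.11% of all genes called higher, 4 of the 6 kinetochore and spindle genes that were tested were called higher (Spc24, Racgap1, Anln and Incenp), as were 1 of 6 replication genes (Fen1), 1 of 6 condensin and cohesin genes (Smc2), 1 of 5 G1 genes (Ccnd1) and 1 of 7 brakes (Cdkn2c). In M over E the mitotic entry and exit genes had 9 of 11 positive differences, with the Cdk1-binding proteins Cks1b and Cks2 called higher, 2 of the 6 tested beside 6.62% of all genes, and 7 of 12 condensin and cohesin genes were positive (median 0.21). Of the 16 E2F, RB, MuvB and MYC regulators 11 were positive (median 0.19). Myc itself did not follow the members: it was at 662 CPM in E and 687 in EM1, 433 in EM2 and 435 in EM3, and 821 in M and 357 in the parental tumour. In EM3 over E, which called 6.82% of 5320 genes lower, the brakes Btg2 and Gadd45a, 2 of the 8 tested, were called lower, from 50.4 to 13.3 and from 333 to 141 CPM, and so was Ccnd2, 1 of the 6 G1 genes tested.

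Macrophages of the Total libraries also differed between tumours in the share of dividing cells, which was lowest in E. It was 3.70% of 3808 cells in E (3.13 to 4.35), 9.35% of 1187 in EM1 (7.76 to 11.2), 10.1% of 3289 in EM2 (9.11 to 11.2), 13.0% of 3891 in EM3 (11.9 to 14.0), 15.2% of 2859 in M (14.0 to 16.6) and 16.3% of 2573 in the parental tumour (14.9 to 17.8). E lay below all others, EM1 overlapped EM2, EM3 narrowly overlapped M, and M overlapped the parental tumour. Median depths were 5043 to 5791 UMIs in E, EM1 and EM2 and 7439 to 9642 in the other 3, and after thinning the shares were 1.46%, 3.80%, 4.10%, 4.22%, 6.25% and 7.01% in the same order, so E remained lowest.

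The members in macrophages summed to 768 CPM in E and 1268 in EM1, 1286 in EM2 and 1121 in EM3, and 1773 in M and 1788 in the parental tumour. M was 1.21 log2 units above E (1.18 to 1.23), and 11.5 percentage points in the share (10.1 to 13.0). The log2 difference was smaller with each cell weighted equally. That in the share was smaller after thinning and larger with a cut on the mitotic members, as given in the last section. EM1 and EM2, which differed widely in their tumour cells, differed in macrophages by 0.77 points (-1.29 to 2.70). Cdk1 was at 14.8 CPM in the macrophages of E, 42.1 in EM1, 42.0 in EM2 and 37.6 in EM3, and 57.7 in M and 67.3 in the parental tumour, and Mcm6 at 14.1, 41.1, 37.9, 39.1, 55.1 and 65.2 CPM. For both genes E was lowest and the parental tumour highest. Birc5 and Tpx2 were highest in M, at 47.0 and 32.8 CPM, and lowest in E, at 10.6 and 5.41 CPM. Mcm4 was the helicase gene that did not follow, at 51.9 CPM in E and 53.4 in EM1, 45.7 in EM2 and 41.3 in EM3, and 42.9 in M and 66.0 in the parental tumour. Cenpa was level, at 136 to 160 CPM in all 6 tumours. Cdkn1a was highest in E, at 1307 CPM, and lowest in M, at 782 CPM.

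In the CD45 libraries the annotation divides these cells in another way. Cells labelled Macrophage held 1.78% dividing cells in E (1.44 to 2.19) and 3.40% in EM1, 2.43% in EM2 and 3.49% in EM3, and 4.86% in M and 3.18% in the parental tumour. A class labelled Other Myeloid, of 264 to 496 cells, held 67.8%, 63.7%, 79.1%, 43.1%, 47.3% and 54.3% dividing cells in the same order. Median depth was 5141 to 7686 UMIs over the tumours in cells labelled Macrophage and 2358 to 11004 in Other Myeloid cells, and after thinning to 2000 UMIs the shares were 0.178% (E) to 0.586% (EM1) and 28.5% (E) to 51.8% (EM1). Its 6 macrophage markers summed to a median of 13309 CPM over the tumours, against 12513 CPM in the class labelled Macrophage. With both classes joined, a choice made after the values were seen, the shares were 6.07% in E and 9.75% in EM1, 8.36% in EM2 and 7.04% in EM3, and 8.87% in M and 7.18% in the parental tumour. M was then 2.80 points above E, against 11.5 points in the Total libraries.

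Other Myeloid cells over cells labelled Macrophage called 2.79% of 3723 genes at least 2-fold higher in every tumour, and 22 of the 24 members at that level. Over all members, 40 of 40 were positive in all 6 tumours and 35 were at least 2-fold higher in each. No share of all genes at any level was computed to set beside them. The authors drew the classes from the expression of the same cells, so these counts describe a class and test nothing. Mki67 was at 181 CPM in the Other Myeloid cells of E and 401 in EM1, 418 in EM2 and 272 in EM3, and 428 in M and 301 in the parental tumour, so that E was lowest here too. Birc5 ran from 109 CPM in E to 200 CPM in M. The S-phase to mitotic ratio was -0.37 to -0.02 log2 units in Other Myeloid cells and 0.84 to 1.36 in cells labelled Macrophage.

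T and NK cells, 1 class in the Total libraries, had another order of tumours, with E among the highest and M among the lowest. Dividing cells were 9.65% of 3036 cells in E (8.62 to 10.8), 5.96% of 1511 in EM1 (4.82 to 7.27), 8.67% of 1441 in EM2 (7.27 to 10.2), 9.32% of 1030 in EM3 (7.61 to 11.3), 3.89% of 1080 in M (2.82 to 5.22) and 3.68% of 707 in the parental tumour (2.42 to 5.34). E, EM2 and EM3 overlapped, M and the parental tumour overlapped each other below them, and EM1 lay between, with an interval that overlapped those of M and the parental tumour. M was lower than E by 5.76 percentage points (interval of the difference -7.30 to -4.08), and EM3 differed from E by -0.33 points (-2.36 to 1.87). Median depth was 2027 UMIs in E, 1778 in M and 1096 to 2094 over all tumours. Thinning to 2000 UMIs kept 82 to 1560 cells per tumour and left out mostly cells that were not dividing, so the thinned shares, 6.04% in M to 42.4% in EM2, are not comparable between tumours in this class.

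The members summed to 3155 CPM in the T/NK cells of E, 3043 in EM1, 3687 in EM2 and 2780 in EM3, and 1880 in M and 2110 in the parental tumour, and M was lower than E by 0.75 on the log2 scale (interval of the log2 difference -0.79 to -0.70). Rrm2, the small subunit of ribonucleotide reductase, was at 120 CPM in E and 124 in EM1, 160 in EM2 and 94.6 in EM3, and 50.1 in M and 72.8 in the parental tumour. Top2a was at 288, 242, 319, 220, 121 and 158 CPM. For both genes the other 4 tumours were thus above M and the parental tumour. Nusap1 was at 60.7 to 76.1 CPM in those 4 and at 23.4 and 27.4 CPM in M and the parental tumour. Other members did not divide the tumours in this way: Kif23 was at 43.2 to 44.1 CPM in the 4 tumours and 49.2 in M, and Pcna was at 302 CPM in both EM3 and M. Cenpa was at 261 CPM in E and 158 in EM1, 174 in EM2 and 227 in EM3, and 84.1 in M and 113 in the parental tumour. Tumour markers summed to 356 to 1300 CPM in this class over the 6 tumours, and their part in these values was not tested.

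The make-up of the T/NK class differed between tumours, in part along this order. Cells with a UMI of Cd8a or Cd8b1 and none of Cd4 were 47.8% of the class in E and 32.6% in EM1, 23.6% in EM2 and 37.2% in EM3, and 13.9% in M and 9.90% in the parental tumour, so EM1 held more of them than EM2 but fewer dividing cells. B cells, which should lack these messages, had CD8 message alone in 1.42% to 7.26% of cells and Cd4 alone in 2.97% to 17.1% (6 of 35 cells, EM3), at median depths of 1067 to 1827 UMIs. Within the CD8 cells the dividing share was 12.5%, 9.76%, 12.4%, 11.0%, 6.67% and 8.57%. Among cells with Cd4 alone it was 9.16% in E and 8.60% in EM1, 14.1% in EM2 and 11.1% in EM3, and 3.57% in M and 4.73% in the parental tumour. Both groups of cells had their lowest values in M and the parental tumour, although the CD8 intervals there were wide (for M 3.24 to 11.9, and for the parental tumour 3.21 to 17.7) and overlapped those of the other tumours. The CD4 interval of M (1.80 to 6.30) overlapped that of EM1, and that of the parental tumour (1.92 to 9.50) those of E, EM1 and EM3. Cells with neither message, 55.8% of the class in M and 68.9% in the parental tumour, did not follow that order: their dividing share was 3.58% in E and 1.47% in EM1, 3.89% in EM2 and 5.71% in EM3, and 3.32% in M and 2.67% in the parental tumour. This division of the class was chosen after the data were seen. Deeper cells more easily show Cd4 or CD8 message and more easily pass the cut. Dividing T/NK cells had median depths of 2407 to 4898 UMIs, against 1096 to 2094 in the class. The depths of the groups with CD8, Cd4 and neither message were not compared, so cells with neither are not read as a cell type.

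In the CD45 libraries all T and NK cells together gave 6.36% dividing cells in E (5.30 to 7.55) and 5.23% in EM1, 5.47% in EM2 and 5.56% in EM3, and 3.01% in M (1.90 to 4.53) and 2.38% in the parental tumour. M and the parental tumour were lowest in both kinds of library. Most dividing T cells stood in a class the authors named for Mki67, with 84 cells in E and 138 in EM1, 88 in EM2 and 58 in EM3, and 13 in M and 13 in the parental tumour. Since its name rests on a member, its dividing share, 97.1% to 100%, and its member level, 10896 to 12819 CPM, follow from how it was drawn. Over Gzmb+ Cd8+ T cells it called 5.2% of 4825 genes higher in each of 4 tumours, among them 33 of 34 members at that level and 38 of 40 in all, from which nothing is read.

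What the class name did not fix was the lineage of the cells. Cells with CD8 message alone were 58.3% of the Mki67+ class in E and 52.2% in EM1, 34.1% in EM2 and 43.1% in EM3, and 38.5% in M and 30.8% in the parental tumour. Cells with CD4 message alone were 27.4%, 22.5%, 45.5%, 37.9%, 23.1% and 38.5%, and cells with a UMI of Foxp3, the factor of regulatory T cells, were 15.5%, 17.4%, 35.2%, 25.9%, 7.69% and 30.8%. The CD8 and CD4 intervals did not overlap in E (47.1 to 69.0 and 18.2 to 38.2) and EM1 (43.5 to 60.7 and 15.8 to 30.3), and overlapped in EM2 and EM3. B cells of the same libraries had CD8 message alone in 0% to 4.81% of cells, CD4 message alone in 0% to 2.69% and Foxp3 in 0.708% to 2.44%, at median depths of 887 to 1488 UMIs against 3281 to 5748 in the Mki67+ class. All other T cells of the CD45 libraries had CD8 message alone in 43.9% of cells in E and 31.1% in EM1, and in 22.2% in EM2 and 33.5% in EM3, and CD4 message alone in 27.4%, 24.4%, 26.8% and 32.5%. Their Foxp3 shares were 13.1%, 9.33%, 13.5% and 20.3%. These cells were shallower, at median depths of 958 to 1701 UMIs, so the shares of both classes are given side by side and not compared. The 13 cells each of M and the parental tumour are too few to order.

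Outside that class few T cells passed the cut, which follows in part from how the authors drew it. The shares below thus do not show how often Gzmb+ or Foxp3+ T cells divide. Median depths over the tumours were 1134 to 2211 UMIs in Gzmb+ Cd8+ and 987 to 1584 in Foxp3+ Cd4+ T cells, where the cut can miss dividing cells. Gzmb+ Cd8+ T cells, which carry granzyme B, held 3.39% dividing cells in E (2.05 to 5.24) and 3.06% in EM1, 1.59% in EM2 and 4.18% in EM3, but 0 of 63 in M, which allows a share of up to 4.76%. The parental tumour held only 8 such cells. Foxp3+ Cd4+ T cells held 1.90% to 3.23% over the 6 tumours, with overlapping intervals. Gzmb+ over Lef1+ Cd8+ T cells called 0.794% of 4408 genes higher in every one of 5 tumours and 0 of the 10 members at that level, which at so low a background share says nothing of the members.

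**Figure D4:**
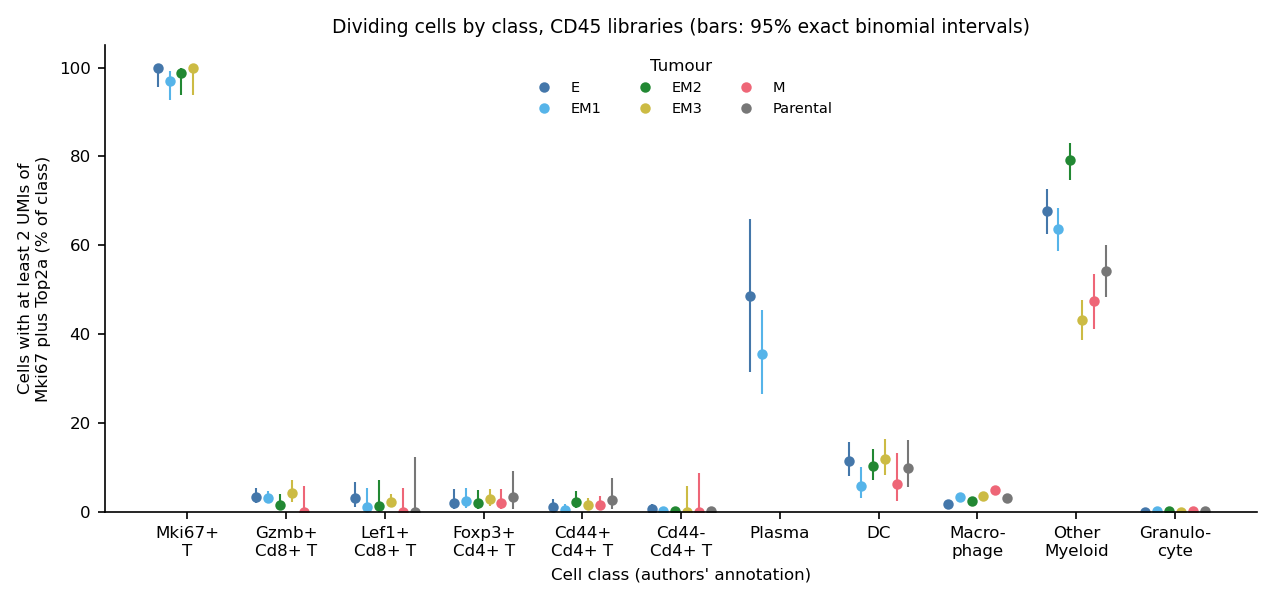
Share of dividing cells (percent with at least 2 UMIs over Mki67 plus Top2a) in the classes of the CD45 libraries, 1 point per tumour with at least 20 cells of the class, with exact 95% intervals that cover counting error. Other Myeloid cells (43.1% to 79.1%), the class named for Mki67 and Plasma cells (35.5% and 48.6%, in 2 tumours) are the high classes, and granulocytes lie at 0% to 0.120%.

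Plasma cells, the antibody-secreting end of the B lineage, were common enough to follow in the CD45 libraries of E and EM1, where 48.6% of 35 cells (31.4 to 66.0) and 35.5% of 107 cells (26.5 to 45.4) were dividing. Over Cd44-MHCIIhi B cells they called 4.63% of 4647 genes higher in both tumours, with 18 of the 26 members at that level higher and Cdt1 lower. Of the 4647 genes 1536 (33.1%) were called lower, and the median of all genes was -0.93 log2 units. Over the mitotic and S-phase members the medians were 2.54 and 1.32. In both tumours 36 of the 40 members were positive, a count with no share of all genes computed beside it. Cdt1 (-1.32 in E, -1.22 in EM1) and Cenpa (-0.42 and -1.15) were negative in both. The authors drew these classes from expression too, so the counts describe a class and test nothing. The 4 plasma cell markers summed to 21240 to 34754 CPM over the 3 tumours with most plasma cells.

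Against the 0% to 0.120% of the CD45 libraries, the dividing share of granulocytes in the Total libraries was higher in value, though EM1 rests on 1 cell: 0.319% of 2506 cells in E (0.138 to 0.628), 0.182% of 549 in EM1, 1.86% of 646 in EM2 (0.963 to 3.22), 0.503% of 1194 in EM3, 0.516% of 3874 in M and 1.16% of 605 in the parental tumour. These were 54 cells in all. Genes of granulocyte precursors were set against the other granulocytes of the same tumour, without intervals since the dividing cells are 1 (EM1) to 20 (M) per tumour. Dividing granulocytes were deeper, at median depths of 1258.5 to 6288 UMIs over the tumours, against 777 to 1460 in the class. Low values in so few cells rest on few UMIs, and the absence of a gene from a tumour is not read. Ngp, a granule protein gene of maturing neutrophils, was at 8325 to 48619 CPM in dividing granulocytes and 856 to 7338 CPM in the others, and higher in the dividing cells of all 6 tumours. Ltf, lactoferrin, was also higher in all 6, from 4411 CPM in the parental tumour to 18435 in EM3, against 296 to 3258 CPM in the others. Elane, the neutrophil elastase gene of early precursors, came from EM2 and M alone, at 814 and 462 CPM in their dividing granulocytes, and had no UMI in those of the other 4 tumours. Ctsg, another precursor gene, also came from these alone, at 592 and 14.4 CPM, the value of M being at the floor of its counts. Prtn3, a further precursor gene, was present in dividing granulocytes of every tumour but E, at 110 (parental) to 3091 CPM (EM2). In the other granulocytes Prtn3 was at 0 (EM1) to 15.1 CPM (EM3). Csf3r, the receptor for granulocyte colony-stimulating factor, was lower in the dividing cells of all 6 tumours, at 159 to 1286 against 1500 to 2314 CPM. Fcnb, Chil3 and S100a8 were also higher in the dividing cells of all 6 tumours. Camp, Mpo and Cxcr2 were mixed: Camp, a granule peptide gene, was higher in dividing cells of 5 tumours but not of the parental tumour (110 against 846 CPM), Mpo, myeloperoxidase, had no UMI in the dividing cells of EM1, EM3 and the parental tumour, and Cxcr2, a chemokine receptor of mature neutrophils, was lower in 5 tumours but not in E (866 against 838 CPM).

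The other classes of the Total libraries were small. Endothelial cells held 8.70% to 21.6% dividing cells, in classes of 37 to 135 cells whose intervals overlapped. Fibroblasts held 10.4% in E, 0 of 52 in EM1, which allows a share of up to 5.77%, 7.73% in EM2 and 13.1% in EM3, and 4.74% in M and 11.5% in the parental tumour. Dendritic cells held 13.7% in EM2 (8.88 to 19.8) and 2.83% in M (0.588 to 8.05) as highest and lowest. Among B cells the share was 6.93% in E (4.34 to 10.4) and 0.980% in the parental tumour (0.119 to 3.50).

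Over all cells of a Total library, the class that held most of the dividing cells changed with the tumour. These shares depend on class size and on depth as well as on division. E had 766 tumour cells and 3036 T/NK cells, and the parental tumour had 5866 and 707. T/NK cells were shallower, at median depths of 1096 to 2094 UMIs, than tumour cells, at 6500.5 to 15279. In E 49.7% of all dividing cells were T/NK cells, 23.9% macrophages and 16.5% tumour cells. In the parental tumour 75.6% were tumour cells, 19.7% macrophages and 1.2% T/NK cells. Tumour cells were 65.5% of the dividing cells in EM1 and 68.2% in EM2, 43.4% in EM3 and 71.0% in M. In EM3 macrophages held slightly more than the tumour cells, 43.9%. In the CD45 libraries Other Myeloid cells held 40.6% to 53.0%, cells labelled Macrophage 17.9% to 44.1% and the class named for Mki67 4.2% to 22.9%.

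Within a class, dividing cells were set against the other cells of the same tumour to see which of the 38 members outside the cut went with it. This is a description, since the cells were divided on 2 members, and dividing cells were deeper (in tumour cells a median of 8175 to 18969 UMIs). In tumour cells 1.43% of 4122 genes were at least 2-fold higher in dividing cells of every tumour, as were 28 of the 38 members. The first share is over genes of at least 50 CPM and the count of members is at any level, so they are not like for like. At that level 24 of the 40 members were tested and 20 called, Mki67 and Top2a among them. In T/NK cells the values were 2.74% of 4558 genes and 29 of 38 (25 of the 29 tested), and in macrophages 1.9% of 3682 genes and 30 of 38 (18 of the 22 tested). Over the 21 mitotic and 17 S-phase genes outside the cut, the median log2 difference was 2.32 and 1.22 in tumour cells, 2.58 and 2.33 in T/NK cells and 1.77 and 1.79 in macrophages, so the S-phase and mitotic medians were farthest apart in tumour cells.

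Ccna2, cyclin A2, showed the largest difference in tumour cells, with a median over the tumours of 3.24 log2 units (2.89 to 3.63), and Rrm2 the largest in T/NK cells, 4.21 (3.43 to 4.45), and in macrophages, 3.25 (3.05 to 3.57). Cdt1 differed by 0.87 in tumour cells, 0.72 in T/NK cells and 0.86 in macrophages. Ccnb1 differed by 0.25 to 0.34 in the 3 classes, at the low counts given above. Cenpa, the histone variant of centromeres, differed by 2.48 (2.36 to 2.68) in tumour cells but by 0.31 (0.08 to 0.47) in T/NK cells and 0.24 (0.07 to 0.44) in macrophages. In those 2 immune classes its median level, 166 and 141 CPM, came from dividing and other cells nearly alike, and in Cd44- Cd4+ T cells of the CD45 libraries, where 0% to 0.49% of cells were dividing, its median level was 141 CPM. Pcna also had message where few cells passed the cut, at 86.6 to 125 CPM in the granulocytes of the CD45 libraries. At their median depths of 690.5 to 1221 UMIs the cut can miss dividing cells, and RNA from outside the cells was not measured.

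**Figure D5:**
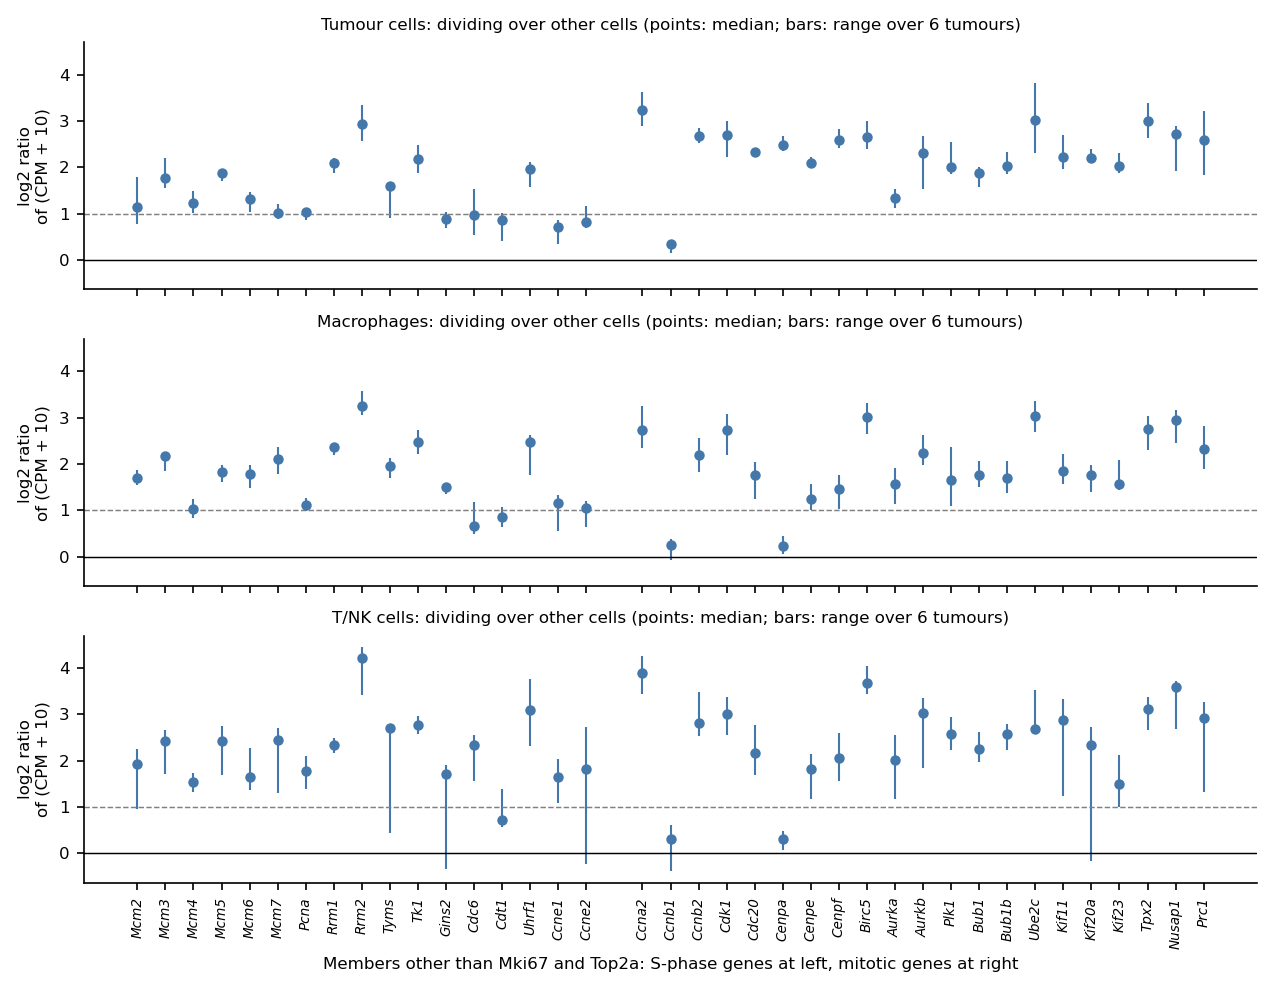
Log2 difference of the 38 members other than Mki67 and Top2a between dividing and other cells of the same class and tumour, on the scale of log2(CPM + 10), in tumour cells, T/NK cells and macrophages of the Total libraries, with the median and the range over the 6 tumours. Cenpa lies at 2.48 in tumour cells and at 0.31 and 0.24 in T/NK cells and macrophages.

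Of the further lists, 22 of 24 kinetochore and spindle genes and 8 of 12 condensin and cohesin genes were at least 2-fold higher in dividing tumour cells of every tumour, against 11 of 23 other replication genes, 0 of 13 brakes and 0 of 6 G1 cyclins and kinases. These counts are at any level, while the 1.43% of all genes is over those of at least 50 CPM. Foxm1, a transcription factor of mitotic genes, differed by 2.19 log2 units (2.03 to 2.42) and Mybl2 by 2.04 (1.42 to 2.21). Cdkn2c, the p18 inhibitor of cyclin D kinases, was higher in dividing macrophages by 1.81 (1.35 to 2.39) and in dividing T/NK cells by 1.5 (1.06 to 2.48), but differed by 0.25 (-0.17 to 0.44) in tumour cells. The cyclin D genes divided the cell types: Ccnd1 was at 340 to 755 CPM in tumour cells and 23.5 to 141 CPM in T/NK cells, and Ccnd2 was at 380 to 537 CPM in T/NK cells and 4.25 to 56.4 CPM in tumour cells.

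Genes outside the members that followed their summed level most closely were ranked over the 46 class and tumour points of the Total libraries with at least 50 cells, 1 of them cells annotated Unknown (EM3), by the correlation of log2(CPM + 10) with the log2 of the sum. The highest of 8768 genes were Smc2 (r = 0.95), a condensin subunit, Stmn1 (0.94), a tubulin-binding protein, Tacc3 (0.93), a spindle protein, and Rpa1 (0.91), which coats single-stranded DNA. In the CD45 libraries, over 67 points and 8488 genes, Tipin (0.95), a replication fork protein, Stmn1 (0.95) and Tubb5 (0.94), a tubulin, led. Points of 1 library share their depth and tumour, so these values describe likeness and have no test. Of the members, 26 reached the ranking minimum of 50 CPM at any point in the Total and 39 in the CD45 libraries, and each was set against the sum it is part of. Cenpa was the least alike of these, with r = 0.57 and 0.51, and Mcm5 (0.95, Total) and Rrm1 (0.96, CD45) the most alike. On the scale of log2(CPM + 1) Cdt1 (0.55) and Mcm6 (0.93) took those places in the Total libraries, and Cenpa and Rrm1 kept them in the CD45 libraries.

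Whether division went with the epithelial or mesenchymal state was asked over the 6 tumours. The score was the mean of log2(CPM + 10) over 12 mesenchymal genes less that over 13 epithelial genes in the tumour cells, and it was -1.97 in E and 1.46 in EM1, 2.08 in EM2 and 3.36 in EM3, and 2.73 in M and 1.09 in the parental tumour. Two-sided exact permutation tests were made, with Benjamini-Hochberg adjustment over 4 relations. The dividing share of tumour cells against this score gave r = 0.66 (exact permutation p = 0.186, adjusted 0.372) and rho = 0.49 (exact permutation p = 0.356, adjusted 0.474). The summed CPM of the members in tumour cells, outside the 4 relations, gave r = 0.44 (exact permutation p = 0.397) and rho = 0.49 (exact permutation p = 0.356). Cells labelled Macrophage in the CD45 libraries gave r = 0.72 (exact permutation p = 0.0917, adjusted 0.367) and rho = 0.77 (exact permutation p = 0.103, adjusted 0.411). Joined with Other Myeloid cells, outside the 4 relations, they gave r = 0.51 (exact permutation p = 0.314) and rho = 0.26 (exact permutation p = 0.658). CD4 T subtypes of the CD45 libraries gave r = 0.44 (exact permutation p = 0.367, adjusted 0.489) and rho = 0.49 (exact permutation p = 0.356, adjusted 0.474). CD8 T subtypes gave r = -0.34 (exact permutation p = 0.567, adjusted 0.567) and rho = -0.17 (exact permutation p = 0.733, adjusted 0.733). Both sets of subtypes leave out the class named for Mki67, which held most dividing T cells. All T and NK cells of the CD45 libraries together, outside the 4 relations, gave r = -0.33 (exact permutation p = 0.556) and rho = -0.029. None of the 4 relations passed the threshold of 0.05. When E and EM3 were left out as those with scores farthest from the median, r of the 4 relations was 0.38, 0.56, 0.73 and -0.24 in the order given.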

How the data were processed

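The authors deposited raw UMI counts per gene and cell for 12 libraries, 1 tumour per group, with cell classes in a second table. Reads were processed with Cell Ranger against mm10, per the submitters' processing notes. Per the labels' protocols cells were fixed with a fixed-RNA kit, yet libraries were made with reagents for 3′ ends, and the labels do not settle which applies. The sharing of droplet barcodes given above was not used to decide between them. The authors filtered cells before deposit, with limits that differed between libraries.

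Doublets were scored per library with the Scrublet method, rewritten with functions of scanpy 1.11.5 (2 simulated pairs per cell, an expected share of 6%, 2000 variable genes, 30 components). Cells above a score of 0.251, the median of the limits found in the 12 libraries, were left out of all libraries. Counts were summed over the cells of a class and tumour and scaled to CPM. Classes of fewer than 20 cells entered no comparison. Differences between tumours were taken as log2(CPM + 10) over the whole table, among genes of at least 50 CPM in either sum, and called at 2-fold. Comparisons between classes of the same tumours needed the call in every tumour. Intervals of differences were combined from both intervals. In counts simulated with counting error only, most planted rises well above 2-fold were recovered among genes of at least 50 CPM. Genes below that level and spread between tumours were not simulated. Genes were named where they were members, in 7 fixed lists, among the 10 most like the members' sum or among fixed cell type markers, with roles and the calls deciding which members were given in full. The members and lists were chosen with earlier results of these data known.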

Additional observations from a re-analysis of the deposited data

Results flagged for a closer look

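The difference in dividing cells between M and E ran one way in tumour cells and macrophages of the Total libraries, which were higher in M, and the other way in T/NK cells, which were -5.76 percentage points in M minus E. This difference between classes was not tested, since each clone was 1 tumour.

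Cells that the authors annotated as Unknown, which entered no comparison between tumours or classes, held 42.9% dividing cells in EM2 (12 of 28 cells), 24% in EM3 (12 of 50) and 55.3% in the parental tumour (21 of 38), against 35.8%, 26.0% and 27.5% of the tumour cells of the same libraries. Their median depths were 21306, 9419 and 20549 UMIs, against 14831, 15279 and 13157 in the tumour cells, and after thinning to 2000 UMIs their shares were 13.8%, 6.83% and 9.60%, below the 16.6%, 9.08% and 11.7% of the tumour cells. In M the share was 9.30% (4 of 43).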

How the results depend on the processing

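Of 87 recomputed results 0 changed sign, 50 were counted as unchanged and 37 moved. Most were differences between tumours, which were unchanged when they stayed within counting error. The others were the correlations with the epithelial-mesenchymal score, the likeness rankings and the counts of members called. These had no counting interval, the correlations had no limit at all, and all of them were among the 50. Of a further 270 recomputed levels and shares of single tumours, 73 stayed within counting error and 197 moved. The cause was not tested beyond what each setting does. Thinning removes UMIs and leaves out shallow cells. With cells thinned to 2000 and 1000 UMIs, the difference in dividing tumour cells was 6.36 and 3.70 percentage points for M minus E, 3.72 and 2.17 for EM3 minus E and 10.3 and 5.74 for EM2 minus EM1, and that in macrophages was 4.80 and 2.53. In T/NK cells M minus E was -3.21 at 1000 UMIs. With a cut of 3 UMIs over the mitotic members, the differences were 27.9, 26.1, 23.2, 20.2 and -11.3 points in the same order. Cuts of 1 and 3 UMIs of Mki67 plus Top2a gave 17.9 and 9.83 points for EM3 minus E in tumour cells and 15.9 and 9.14 for M minus E in macrophages. In the CD45 libraries M minus E was 3.07 points in macrophages, 2.80 with Other Myeloid cells and -3.34 in T and NK cells, and the log2 ratio of the summed CPM was 0.42, 0.43 and -0.59.

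With median-of-ratios size factors the log2 ratio of the sums was 1.00 for M over E and 0.60 for EM3 over E in tumour cells and 1.08 for M over E in macrophages. That scaling shifted the tumour cell ratios of all genes by 0.19, 0.30 and 0.01 for M over E, EM3 over E and EM2 over EM1, and 37, 34 and 40 of the 40 members were then positive. With each cell weighted equally, the ratio was 0.62 for M over E and 0.79 for EM2 over EM1 in tumour cells, 0.70 in macrophages and -0.52 in T/NK cells, and the S-phase to mitotic ratio differed by -0.54 between M and E. With members of at least 10 CPM the ratio was 0.90 for EM2 over EM1 and 1.07 in macrophages, and without the most abundant member it was 0.99, 1.35 in macrophages and -0.82 in T/NK cells.

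The counts of members called in tumour cells, under the 3 settings added after the data were seen (a pseudocount of 1, a minimum of 10 CPM and size factors), were 9, 11 and 8 for M over E and 10, 8 and 7 for EM2 over EM1. The members tested and the share of all genes called were not counted under these settings, so nothing is read from the counts. They were not kept for EM3 over E. The CD45 libraries hold no class of tumour cells, so the other library could not be used for them. With 1 tumour per group no tumour could be left out of a group. No paired analysis was possible because, between clones, each group is 1 tumour.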
